A study of Mus musculus with 6 samples.

Results

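The 10 genes described here encode NLR proteins, the parts that build an inflammasome, and the proteins that open and rupture the plasma membrane in pyroptosis. They are Nlrc3, Nlrx1, Nlrp3, Nek7, Pycard, Casp1, Casp4, Gsdmd, Gsdme and Ninj1, and they were taken by symbol from a table of 21959 mouse genes. The set was chosen by name with the read counts of this same contrast already seen. All 10 are listed in the table, and 9 had enough reads to enter the fit over 11658 genes. Pycard did not. RNA came from 6 libraries of wild-type cells labelled HL-1, a line derived from mouse atrial cardiomyocytes. All cells went through oxygen-glucose deprivation and reoxygenation (OGD/R), which models ischemia and reperfusion in culture, given as 4 h of hypoxia without glucose and then 24 h of reoxygenation. The OGD/R group had 3 libraries. In the other 3 the cells also received phillyrin, a lignan glucoside from Forsythia, at 50 µg/mL, with 8 h of exposure beforehand and another 16 h together with OGD/R. No cells without OGD/R and none given solvent alone were analysed here, so every difference is between OGD/R with phillyrin and OGD/R. Library totals lay between 14761317 and 22123648 counts.

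Inflammasomes are cytosolic complexes in which a sensor protein, often of the NLR family, gathers the adaptor ASC (gene Pycard) and so activates caspase-1. Caspase-1 matures the cytokines IL-1β and IL-18 and cleaves gasdermin D, whose freed end forms pores in the plasma membrane, and NINJ1 then completes the rupture of the cell. In the heart, this route has been studied mostly in macrophages and fibroblasts after ischemia, and its place in cardiomyocytes is less settled.

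The label was checked against marker genes. Myh6, a myosin heavy chain of heart muscle, was without a single read (0 counts). Of 16 cardiomyocyte markers, 11 were below 0.5 CPM (read counts scaled to a common library size) in every library. Tnnt2, cardiac troponin T, had a mean of 116 ± 1.79 CPM under OGD/R alone, against 153 ± 9.34 CPM in phillyrin libraries (SD, n = 3 each). Myod1, which sets skeletal muscle fate, had 83.2 ± 2.18 and 97.2 ± 4.09 CPM. It was 1 of 6 skeletal myoblast markers, none of which was below 0.5 CPM in every library. The 6 summed to 951 to 968 CPM in OGD/R and 926 to 963 CPM in phillyrin libraries. Most of this was Des, the desmin gene, at 676 ± 8.18 and 695 ± 19.8 CPM. Pax7 had only 2.85 ± 0.557 and 3.17 ± 0.237 CPM. Myog, at 0.351 ± 0.242 and 0.441 ± 0.413 CPM, was the 1 of the 6 that did not enter the fit. Of the 5 tested, edgeR called 1 higher (Myod1) and 2 lower, Cdh15 (132 ± 4.23 and 102 ± 4.84 CPM, adjusted p = 6.88e-08) and Myf5 (64.2 ± 3.65 and 52.5 ± 2.76 CPM, adjusted p = 0.000197). The 16 cardiomyocyte markers summed to 154 to 156 CPM in OGD/R and 184 to 199 CPM in phillyrin libraries, most of it Tnnt2. Gata4 followed at 30.8 ± 2.21 and 28.3 ± 1.01 CPM. Nppb (3.50 and 3.16 CPM), Nkx2-5 (2.75 and 2.94 CPM) and Myl4 (1.38 and 1.90 CPM) were lower. The absence of Myh6 reads and the level of Myod1 go against the label, whereas Tnnt2 and Gata4 were present. The identity of the line was not tested further, and the cells are called HL-1 here only as labelled. Macrophages, which are rich in inflammasome transcripts, left little trace. Of 12 myeloid markers 10 were below 0.5 CPM in every library and 5, among them Adgre1, Itgam and Tyrobp, had no count. Ptprc, the pan-leukocyte antigen CD45, had 11 counts over the 6 libraries. The 12 markers summed to between 2.47 and 3.30 CPM in the OGD/R libraries and between 3.02 and 4.39 CPM in the phillyrin libraries. Most of this was Cd68, a lysosomal protein, at 2.38 ± 0.419 and 3.52 ± 0.899 CPM (SD, n = 3 each). The part of such cells in the differences given here was not tested. In bulk RNA, fewer cells of a type and less RNA per cell cannot be told apart.

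RefSeq promoter windows of build GRCm38.p6, from 250 bases before to 50 bases after the transcription start, were matched by symbol for 9 of the 10 genes, Gsdmd being the one not matched. These coordinates are on that build and not on GRCm39, which the submitters' processing notes name. Of the windows, 4 are printed, for the gene with the largest difference between the groups (Nlrc3), for the neighbours Casp1 and Casp4, and for the richest in G and C (Ninj1). Capitals mark the E-box CACGTG in the window of Casp1 and matches to the wider NF-kB consensus in that of Casp4. Each is read 5′ to 3′ on the strand of the gene.
Nlrc3, chr16:3976583-3976882, minus strand: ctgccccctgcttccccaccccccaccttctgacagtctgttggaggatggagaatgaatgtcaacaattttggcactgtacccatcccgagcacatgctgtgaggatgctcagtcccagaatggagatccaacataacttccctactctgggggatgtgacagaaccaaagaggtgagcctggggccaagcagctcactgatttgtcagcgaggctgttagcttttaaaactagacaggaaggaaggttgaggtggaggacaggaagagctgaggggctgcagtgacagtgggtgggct
Casp1, chr9:5298267-5298566, plus strand: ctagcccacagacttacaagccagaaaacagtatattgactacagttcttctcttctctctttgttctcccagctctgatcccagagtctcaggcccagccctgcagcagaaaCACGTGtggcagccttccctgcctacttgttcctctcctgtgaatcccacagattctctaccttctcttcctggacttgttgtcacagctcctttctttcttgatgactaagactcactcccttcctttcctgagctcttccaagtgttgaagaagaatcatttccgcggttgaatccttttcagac
Casp4, chr9:5308599-5308898, plus strand: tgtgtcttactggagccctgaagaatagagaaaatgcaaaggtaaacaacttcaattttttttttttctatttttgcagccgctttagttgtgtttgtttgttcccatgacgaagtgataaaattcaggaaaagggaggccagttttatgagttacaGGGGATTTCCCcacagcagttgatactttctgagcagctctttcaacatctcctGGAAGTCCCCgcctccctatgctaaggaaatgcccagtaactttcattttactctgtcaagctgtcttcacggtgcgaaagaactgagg
Ninj1, chr13:49187279-49187578, plus strand: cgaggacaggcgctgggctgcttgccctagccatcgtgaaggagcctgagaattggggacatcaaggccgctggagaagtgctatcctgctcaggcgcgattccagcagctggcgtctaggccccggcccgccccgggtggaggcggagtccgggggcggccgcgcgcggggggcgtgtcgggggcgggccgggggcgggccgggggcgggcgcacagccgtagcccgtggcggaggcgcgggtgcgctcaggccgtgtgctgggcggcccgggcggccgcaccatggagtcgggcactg

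Letters for 7 motifs were searched on both strands of the 12 windows that the 9 genes have: the IRF element (GAAA and GAAA around 2 free bases), a narrow form of the NF-kB site (GGGA and TTCC around 2 free bases), the AP-1 site TGANTCA, the NRF2 element (TGAC and GCA around 3 free bases), the E2F site TTTCCCGC, the E-box CACGTG and the TATA letters TATAAA. Of these, the E-box of Casp1 (offset -137 from the start) was the only match. The wider NF-kB consensus, which allows either purine or either pyrimidine at some positions, was added after the Casp4 window had been seen. It matched in both windows of Casp4, in overlapping runs from offset -93 and again at offset -39 in the printed window, and in 1 of the 2 windows of Nlrp3 (offset -186). Over all windows, 8.46% held this wider form. Over all 32851 windows of 300 bases the E-box letters occurred in 7.15%, the TATA letters in 13.6%, AP-1 in 7.81%, IRF in 3.44%, NRF2 in 3.04%, the narrow NF-kB form in 1.47% and E2F in 1.07%. No match means only that these letters are not in these windows. The windows also differed in base composition. G and C made up 76.3% of the window of Ninj1, 65.7% of that of Gsdme and 61.0% of that of Nek7, against a median of 52.7% over all windows. The windows of the other 6 genes held between 41.7% and 54.0%, with Casp4 lowest. By FPKM, Ninj1, Gsdme and Nek7 were also the 3 most abundant of the 9 genes with a window. Gsdmd, which had no matched window, lay above Gsdme in OGD/R (8.75 against 2.82 FPKM) and with phillyrin (6.73 against 2.51 FPKM).

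Levels between genes are compared as FPKM, the authors' fragment values scaled by gene length and library total, which rest on the lengths in their table. Nek7 stood far above the rest at 38.0 ± 1.18 FPKM in OGD/R and 37.8 ± 0.683 FPKM with phillyrin (SD, n = 3 each). Its mean level was higher than that of 92.1% of the genes with any count. Ninj1 followed with 11.2 ± 0.726 and 9.70 ± 0.798 FPKM, then Gsdmd with 8.75 ± 0.303 and 6.73 ± 0.418 FPKM and Gsdme with 2.82 ± 0.0588 and 2.51 ± 0.101 FPKM. These first 4 were in the same order in both groups, and the libraries of neighbours in that order did not overlap. The inflammatory caspases and the NLR genes lay lower. In OGD/R, Casp4 (1.19 ± 0.375 FPKM), Nlrc3 (0.937 ± 0.135 FPKM) and Casp1 (0.918 ± 0.162 FPKM) overlapped as neighbours, and Nlrx1 (0.322 ± 0.0427 FPKM) and Nlrp3 (0.150 ± 0.0660 FPKM) came below them. With phillyrin the order was Casp4 (0.767 ± 0.0259 FPKM), Casp1 (0.598 ± 0.0747 FPKM) and Nlrc3 (0.375 ± 0.0923 FPKM), without overlap, and then Nlrx1 (0.230 ± 0.0369 FPKM) and Nlrp3 (0.211 ± 0.0586 FPKM), which overlapped. Pycard was last in both, at 0.00912 ± 0.00794 and 0.0478 ± 0.0359 FPKM. The downstream pore and rupture genes were thus measured at higher levels than the sensor, the adaptor and caspase-1.

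**Figure D1:**
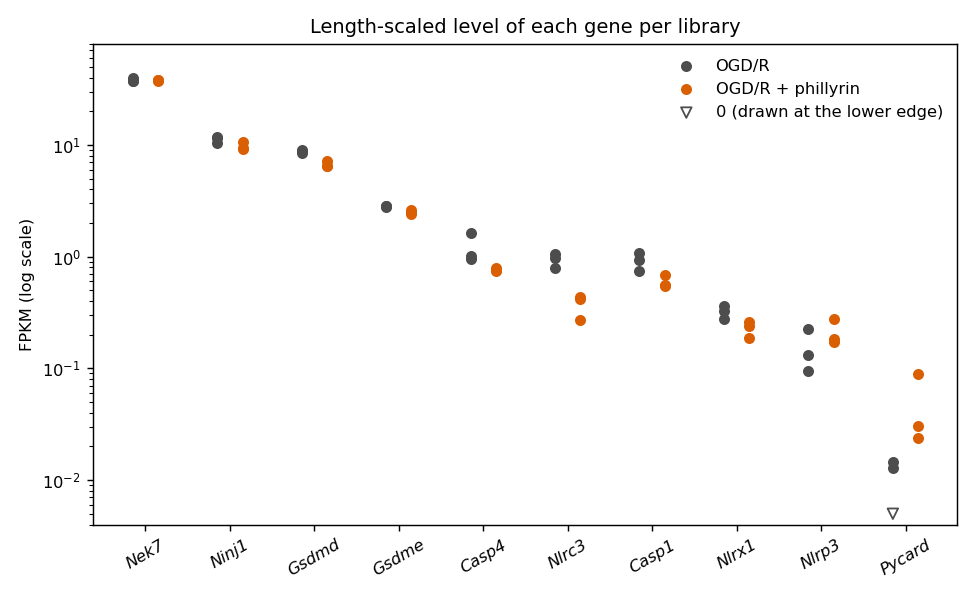
FPKM of the 10 genes in each of the 6 libraries on a log axis, ordered by the OGD/R mean, with OGD/R in grey and OGD/R with phillyrin in orange. Nek7 lies near 38 FPKM and Pycard below 0.1 FPKM in every library, and the library in which Pycard had 0 counts is drawn as an open triangle at the lower edge.

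Between the groups, 7 of the 9 genes in the fit had a lower and 2 a higher mean with phillyrin. In edgeR's quasi-likelihood fit over all genes, 3 of the 9 passed an adjusted p of 0.05, all lower with phillyrin: Nlrc3, Casp4 and Gsdmd. None was called higher, also with DESeq2 and limma-voom, which each called 2 lower. At an unadjusted p under 0.05 edgeR had 0 higher and 4 lower, but the unadjusted share over all genes is not given here. Over all genes tested 31.7% were called, 15.6% lower and 16.0% higher, and with library size as the only scaling 1313 genes were higher and 2455 lower in place of 1871 and 1823. The share of genes called was 32.1% with RLE factors, 32.3% with library size only, 28.0% with DESeq2, 31.7% with limma-voom, 24.0% without a low-count filter, 32.9% at a mean of at least 1 CPM and 31.8% with the replicate block. It was 24.6%, 24.7% and 25.0% without OGD/R replicate 1, 2 or 3, and 30.2%, 27.9% and 28.8% without phillyrin replicate 1, 2 or 3. Because the 10 genes were chosen with this contrast known, their differences are given as a description without p-values and nothing is read from the count. The groups did not overlap for 6 of the 9, all lower with phillyrin, against 43.1% of all genes tested, 21.6% lower and 21.5% higher. The median log2 fold change over all genes tested was -0.01. The labels do not tell whether libraries of 1 group are separate cultures, and errors and p-values describe how these libraries spread, in part perhaps for technical reasons.

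**Figure D2:**
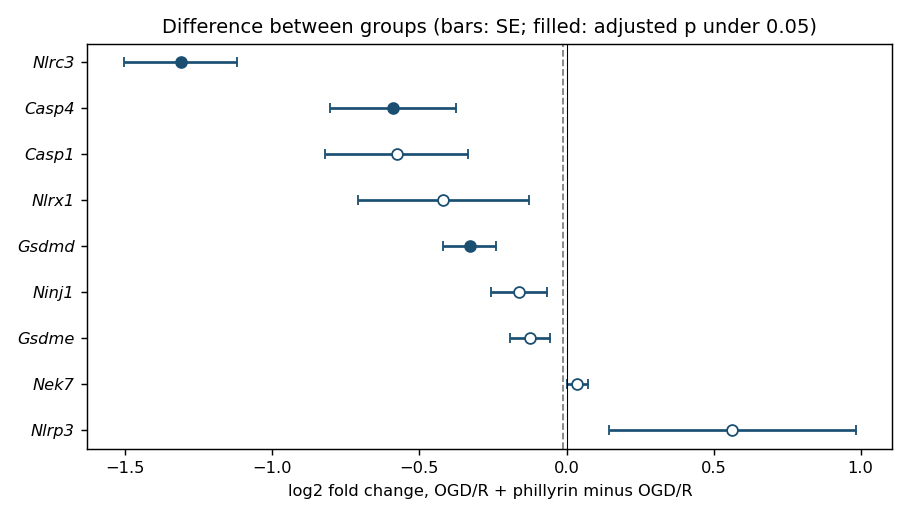
Log2 fold change of the 9 genes in the fit, OGD/R with phillyrin minus OGD/R, with bars for the SE, filled where the adjusted p was under 0.05, and a dashed line at the median of all genes tested. Nlrc3 is farthest to the left at -1.31, and Nlrp3, with the widest bar, lies to the right at 0.56.

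Among the NLR genes, Nlrc3 had the largest difference. Nlrc3 (ENSMUSG00000049871, chromosome 16, 3762871 to 3794496, minus strand) encodes an NLR that restrains innate signalling and builds no inflammasome of its own. Its CPM, scaled with the TMM factors of edgeR, were 5.46, 7.29 and 6.84 under OGD/R alone and 3.10, 1.92 and 3.06 where phillyrin was added. All 3 phillyrin libraries lay below all 3 OGD/R libraries, and the lowest was phillyrin replicate 2. The read counts behind these values were 101, 151 and 130 against 53, 42 and 44. The log2 fold change was -1.31 (SE 0.19), a level 59.7% lower, and 33 of the 11658 genes tested were at or below it. The authors' coordinates place Slx4 2473 bases away on the same strand and Cluap1 3860 bases away on the other strand. Slx4, a scaffold of DNA repair nucleases, stood at 43.4 ± 3.23 and 39.9 ± 2.28 CPM (SD, n = 3 each, edgeR adjusted p = 0.180), and Cluap1, of the ciliary transport machinery, at 4.20 ± 0.340 and 3.62 ± 1.23 CPM (edgeR adjusted p = 0.418).

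Nlrx1 (ENSMUSG00000032109, chromosome 9, 44164014 to 44179896, minus strand) encodes a mitochondrial NLR that also dampens antiviral signalling. Its CPM were 2.05, 1.83 and 1.58 in OGD/R and 1.40, 1.51 and 1.11 with phillyrin. The groups did not overlap, but OGD/R replicate 3 and phillyrin replicate 2 differed by less than the OGD/R libraries did among themselves, and the log2 fold change was -0.42 (SE 0.29). With 106 counts in the 3 OGD/R libraries together and 73 with phillyrin, the exact 95% Poisson intervals ran from 86.8 to 128 and from 57.2 to 91.8 counts and overlapped. These intervals hold only the error of counting, because the labels mention no molecular identifiers and PCR copies of 1 molecule may be counted apart.

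Nlrp3 (ENSMUSG00000032691, chromosome 11, 59432394 to 59457782, plus strand), the sensor of the inflammasome that potassium efflux and many kinds of cell damage trigger, was barely detected. It had 7, 11 and 17 counts in OGD/R and 12, 25 and 11 with phillyrin, which is 0.379, 0.531 and 0.895 CPM against 0.702, 1.14 and 0.765 CPM. The groups overlapped, since OGD/R replicate 3 lay above 2 of the phillyrin libraries. The sums of 35 and 48 counts had Poisson intervals of 24.4 to 48.7 and 35.4 to 63.6 counts. The log2 fold change was 0.56 (SE 0.42), and it ranged from 0.28 (phillyrin replicate 2 left out) to 0.95 (OGD/R replicate 3 left out), with 0.33 when OGD/R replicate 1 was left out. Nlrp3 reached the level that the low-count filter asks for, 0.541 CPM by library total, in 1 OGD/R library and all 3 phillyrin libraries, so it entered the fit mainly through the group in which it was higher. No difference was detectable at this depth.

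Nek7 (ENSMUSG00000026393, chromosome 1, 138410613 to 138547879, minus strand) encodes a mitotic kinase that also binds NLRP3 and bridges it in the assembled complex. It stood at 271, 286 and 270 CPM in OGD/R and 276, 284 and 290 CPM with phillyrin. The groups overlapped, and the spread within a group was as wide as the distance between their means. The log2 fold change of 0.04 (SE 0.04) turned to -0.01 with library size as the only scaling. Depth was no limit for this gene, which had 16081 and 15094 counts in the 2 groups.

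Pycard (ENSMUSG00000030793, chromosome 7, 127588880 to 127593039, minus strand), the adaptor that joins NLRP3 to caspase-1, had 1, 1 and 0 counts in OGD/R and 2, 2 and 5 with phillyrin. In the OGD/R library without a count, an upper limit of 3 counts corresponds to 0.160 CPM. The phillyrin libraries lay above the OGD/R libraries, highest in phillyrin replicate 3, but the Poisson intervals of the sums, 0.242 to 7.22 counts around 2 and 4.12 to 17.1 counts around 9, overlapped. Only 1 library exceeded 3 counts, so no fold is given.

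**Figure D3:**
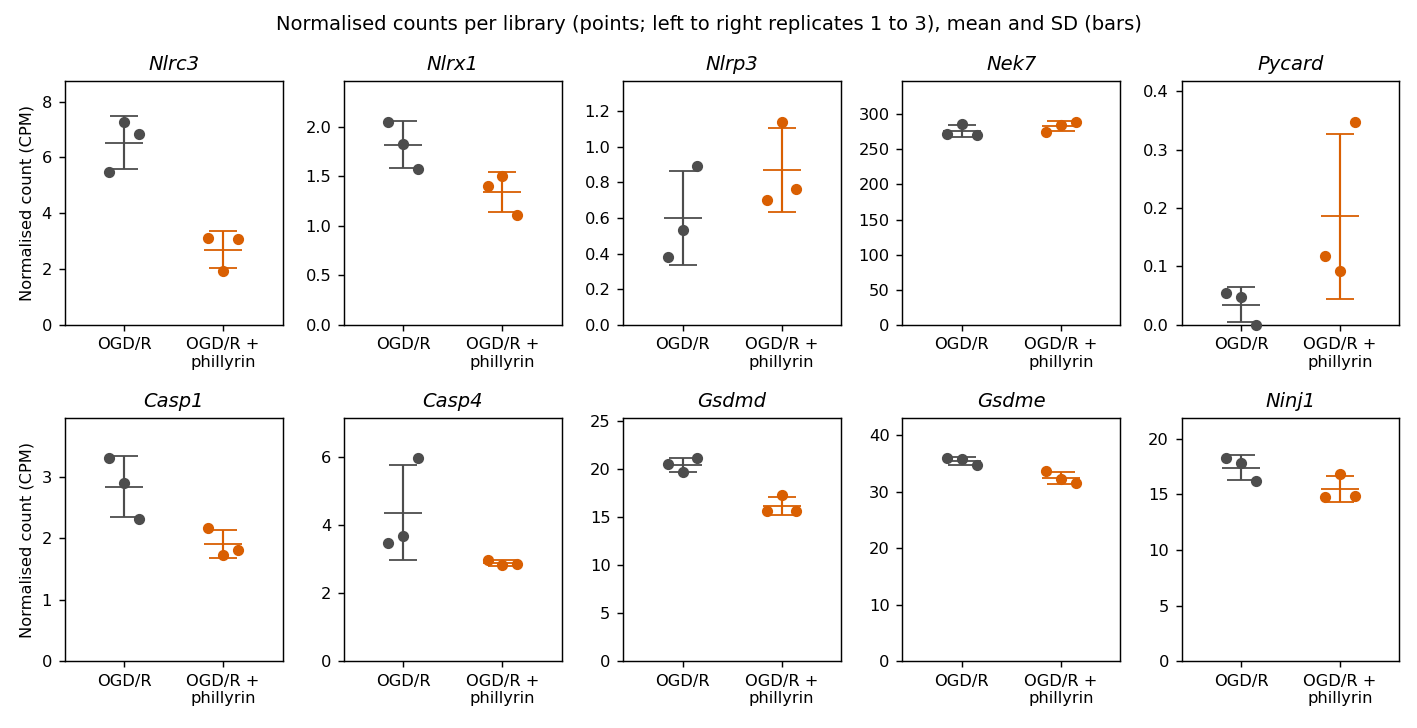
CPM of each of the 10 genes in the 3 OGD/R libraries (grey) and the 3 libraries of OGD/R with phillyrin (orange), with the mean and SD as bars and an axis from 0 in each panel. Points overlap between the groups for Nlrp3, Nek7 and Ninj1 and not for the other 7 genes, and the third OGD/R library stands apart for Casp4.

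Casp1 and Casp4 encode the inflammatory caspases, caspase-1 and the mouse caspase-11, which binds bacterial lipopolysaccharide directly and cleaves gasdermin D without an NLR sensor. Casp1 (ENSMUSG00000025888, chromosome 9, 5298508 to 5307290, plus strand) had 3.30, 2.89 and 2.32 CPM in OGD/R and 2.16, 1.74 and 1.81 CPM with phillyrin. All phillyrin libraries lay below all OGD/R libraries, with OGD/R replicate 3 closest to them, and the log2 fold change was -0.58 (SE 0.24). It did not pass in the fit of all 6 libraries but did without OGD/R replicate 3 (log2 fold change -0.70) and with library size as the only scaling (-0.62). Casp4 (ENSMUSG00000033538, chromosome 9, 5308828 to 5336783, plus strand) had 3.46, 3.67 and 5.95 CPM in OGD/R and 2.98, 2.83 and 2.85 CPM with phillyrin. The groups did not overlap, but OGD/R replicate 3 stood far above the other OGD/R libraries. The log2 fold change was -0.59 (SE 0.21), and -0.30 without that library, when Casp4 was no longer called. The call was also lost on leaving out phillyrin replicate 1 (-0.61), replicate 2 (-0.57) or replicate 3 (-0.58), and with DESeq2 (-0.59) and limma-voom (-0.54).

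Casp1 and Casp4 lie next to each other on the same strand, 1538 bases apart, and Casp12, of the same caspase cluster, follows 8647 bases after Casp4. Casp12, an endoplasmic reticulum caspase, measured 17.5 ± 0.990 CPM under OGD/R alone and 15.5 ± 2.03 CPM in phillyrin libraries (SD, n = 3 each). Per length its mean over the 6 libraries was 4.30 FPKM, above Casp1 and Casp4. It was not called (log2 fold change -0.18, SE 0.10, edgeR adjusted p = 0.173), except without phillyrin replicate 1 (-0.28, edgeR adjusted p = 0.0466).

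Of the gasdermins, Gsdmd differed by more than Gsdme. Gsdmd (ENSMUSG00000022575, chromosome 15, 75734176 to 75739257, plus strand) encodes gasdermin D, the pore-forming target of both inflammatory caspases. It had 20.6, 19.7 and 21.2 CPM in OGD/R and 15.7, 17.3 and 15.7 CPM with phillyrin. The libraries of a group kept close together and the groups did not overlap. The log2 fold change was -0.33 (SE 0.09), a level 20.4% lower. It lay between -0.38 and -0.29 in the 13 alternative fits, in each of which the gene was called. These fits reuse the libraries with which the genes were chosen, so repeated calls are no independent support. Gsdme (ENSMUSG00000029821, chromosome 6, 50165868 to 50240842, minus strand) encodes gasdermin E, another pore-forming member of the family. Its CPM were 35.9, 35.8 and 34.7 in OGD/R and 33.6, 32.3 and 31.6 with phillyrin, 8.33% lower by the fit (log2 fold change -0.13, SE 0.07). The groups did not overlap, yet Gsdme was called in 0 of the 13 alternative fits.

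Gsdme was also the 1 gene of the 10 that overlaps another gene of the table. Pals2, a cell polarity scaffold on the other strand, shares 10052 bases with it. Pals2 stood at 85.3 ± 0.983 and 89.2 ± 5.54 CPM (SD, n = 3 each, edgeR adjusted p = 0.385). The strand setting of the counting is not given in the sources used here, so reads of the shared part cannot be told apart.

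Ninj1 (ENSMUSG00000037966, chromosome 13, 49340961 to 49349720, plus strand) encodes ninjurin-1, which assembles in the membrane of a dying cell and tears it open after the gasdermin pores have formed. It had 18.2, 17.8 and 16.2 CPM in OGD/R and 14.7, 16.9 and 14.8 CPM with phillyrin. Phillyrin replicate 2 lay above OGD/R replicate 3, so the groups overlapped. The log2 fold change was -0.16 (SE 0.10), between -0.23 and -0.12 in the 13 alternative fits, and Ninj1 was called in 0 of them. Card19, which encodes a CARD-domain mitochondrial protein 6706 bases away on the other strand, differed by -0.16 on the log2 scale (SE 0.07, edgeR adjusted p = 0.0933).

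Patterns were compared with those of 9760 or 9761 genes whose mean log2 CPM was 2 or more. Genes with predicted or provisional symbols, such as Gm with digits or Rik, were left out beforehand. Among the genes compared, Parp12, Prr13 and Cnst were most like Nlrc3 in log2 CPM over the 6 libraries (Pearson r of 0.998, 0.995 and 0.993). Their own differences were smaller, with log2 fold changes of -0.38 (SE 0.12), -0.19 (SE 0.05) and -0.39 (SE 0.07). The gene most like Gsdmd was Tprkb (r = 0.999), most like Gsdme Evi2a (0.997), most like Ninj1 Chchd7 (0.988) and most like Nek7 Suco (0.986). For Nlrx1 it was Ptprn (1.00), for Nlrp3 Acvr2a (0.982), for Casp1 Yeats2 (0.993) and for Casp4 Dolk (0.995). Each is the best of all genes compared over 6 points that share 2 groups, and they serve as a description only.

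Other genes of the pathway were taken from lists written for this purpose. Over the 8 lists with tested members, 105 genes were in the fit, of which 17 rose and 23 fell (38.1% called, against 31.7% of all genes tested), with a median log2 fold change of -0.05 against -0.01 for all genes.

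Other NLR genes were scarce. Of 25 listed, 15 were below 0.5 CPM in every library and 8 had no count, and 7 entered the fit. In these 7, edgeR called 0 higher and 0 lower, also with DESeq2 and limma-voom and at an unadjusted p under 0.05. Their median was -0.17. Naip2, a receptor for bacterial secretion system proteins, had the highest FPKM of the list and stood at 8.24 ± 0.856 and 7.32 ± 0.337 CPM (SD, n = 3 each, edgeR adjusted p = 0.362). With fewer libraries the low-count filter let in other genes, and Nlrc4, the partner of the NAIPs with 44 counts over the 6 libraries, was called higher without phillyrin replicate 1 (edgeR adjusted p = 0.00839), and Naip1, with 60 counts, was called lower without OGD/R replicate 1 (0.0324) or replicate 2 (0.0329). Of the other gasdermins and Ninj2, 9 genes, 0 entered the fit and 8 were below 0.5 CPM in every library. Gsdmc3 was the highest of them at 0.540 ± 0.282 and 0.268 ± 0.243 CPM (SD, n = 3 each).

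In the list of inflammasome assembly and control, 4 of 21 tested genes rose and 6 fell, and the median log2 fold change was -0.11. Txnip, a thioredoxin-binding arrestin reported to bind NLRP3 under oxidative stress, had 8.87, 8.49 and 9.63 CPM in OGD/R and 4.74, 4.20 and 4.17 CPM with phillyrin. It fell to less than the lowest OGD/R library in every phillyrin library (log2 fold change -1.04, SE 0.15, edgeR adjusted p = 5.65e-07). Pstpip1, which binds the pyrin sensor, fell from 4.09 ± 0.354 to 2.29 ± 0.230 CPM (± SD, n = 3 per group, log2 fold change -0.82 with an SE of 0.21, adjusted p = 0.00251 by edgeR). Brcc3, a deubiquitinase that acts on NLRP3, fell from 70.2 ± 3.12 to 58.0 ± 3.66 CPM, and Hdac6, a deacetylase of the microtubule route along which NLRP3 moves, from 50.2 ± 2.16 to 41.9 ± 0.801 CPM. Clic1 and Marchf7 also fell, and the genes that rose were Clic4, Sugt1, Pkn2 and Csnk1a1, all with log2 fold changes under 0.20. Without OGD/R replicate 2, 4 genes fell, since Clic1 (edgeR adjusted p = 0.0659) and Marchf7 (0.107) were no longer called. Marchf7 was also lost on leaving out OGD/R replicate 3 (0.0612) or phillyrin replicate 2 (0.132). Hsp90ab1, the chaperone that holds NLR proteins ready, had the highest FPKM of the list and stood at 3190 ± 11.2 and 3330 ± 306 CPM (edgeR adjusted p = 0.314), and it was called higher without phillyrin replicate 1 (0.0105). Aim2, a DNA sensor that also needs ASC, stood at 18.0 ± 2.49 and 19.6 ± 1.55 CPM (edgeR adjusted p = 0.400) and P2rx7, the ATP-gated channel upstream of NLRP3, at 15.2 ± 0.295 and 16.9 ± 1.96 CPM (edgeR adjusted p = 0.274). Per length, both had a higher mean over the 6 libraries (5.36 and 2.68 FPKM) than Nlrp3 and Pycard.

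The caspases outside the inflammatory pair gave 1 gene higher and 3 lower of 7 tested, with a median of -0.23. Casp8, the initiator caspase of death receptors, which can also cleave gasdermin D, fell from 53.2 ± 3.93 to 41.8 ± 0.906 CPM (± SD, n = 3 per group, log2 fold change -0.35 with an SE of 0.06, adjusted p = 4.41e-05 by edgeR). Casp9, the initiator of the mitochondrial route, fell from 12.8 ± 1.74 to 9.54 ± 0.522 CPM (edgeR adjusted p = 0.00502, and 0.0540 without OGD/R replicate 2, which left 2 genes lower). Casp2 was the gene that rose (log2 fold change 0.19, SE 0.07, edgeR adjusted p = 0.0279). That call was lost, leaving 0 higher, without OGD/R replicate 1 (0.0830), replicate 2 (0.0668), replicate 3 (0.0683) or phillyrin replicate 1 (0.0644), and with library size as the only scaling (0.0945).

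Among the inflammasome's cytokines and their relatives, Il1b had 10 counts and Il1a 42 counts over all 6 libraries, and neither entered the fit. Il18 stood at 3.59 ± 0.650 and 4.38 ± 0.670 CPM (SD, n = 3 each, edgeR adjusted p = 0.235). Il33, an alarmin of the same family held in the nucleus and not matured by caspase-1, was the most changed. It had 155, 156 and 156 CPM in OGD/R and 76.2, 71.1 and 77.4 CPM with phillyrin. Every phillyrin library was close to the others and far below OGD/R (log2 fold change -1.06, SE 0.05, edgeR adjusted p = 7.67e-20). Il18rap, the accessory chain of the IL-18 receptor, fell from 17.8 ± 1.95 to 9.64 ± 0.379 CPM (log2 fold change -0.88, SE 0.11, edgeR adjusted p = 3.07e-08), whereas Il18r1, the chain that binds IL-18, had 0 counts, a result that a level of up to 0.0269 CPM over the 6 libraries could give. Il1rap, the accessory chain of the IL-1 and IL-33 receptors, also fell (log2 fold change -0.18, SE 0.06, edgeR adjusted p = 0.0299). Its call was lost on leaving out OGD/R replicate 1 (0.0797), replicate 3 (0.199), phillyrin replicate 1 (0.0574) or replicate 2 (0.0986), and with DESeq2 (adjusted p = 0.0640), so that 2 genes fell. In this list edgeR called 3 of 9 lower and 0 higher, with 0 higher also at an unadjusted p under 0.05 and with DESeq2 and limma-voom, and the median was -0.09. Hmgb1, a nuclear protein that ruptured cells release, was its highest by FPKM at 215 ± 4.64 and 221 ± 11.0 CPM (edgeR adjusted p = 0.507).

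Genes that control gasdermin pores or repair the membrane gave 3 higher and 2 lower of 20 tested, with a median of 0.03. Anxa1 and Anxa2, annexins that patch membrane wounds, had 1270 ± 18.7 and 1630 ± 19.6 CPM under OGD/R alone and fell to 1100 ± 35.3 and 1390 ± 56.7 CPM (SD, n = 3 each, edgeR adjusted p = 4.54e-06 and 1.31e-06). Lamtor2, a subunit of the Ragulator complex that gasdermin D pore formation needs, rose from 22.9 ± 2.15 to 29.2 ± 0.958 CPM (log2 fold change 0.35, SE 0.08, edgeR adjusted p = 0.000799). Zdhhc5, a palmitoyltransferase that acts on gasdermin D, rose (log2 fold change 0.12, SE 0.04, edgeR adjusted p = 0.0230), as did Rragc (edgeR adjusted p = 0.0468). The call of Zdhhc5 was lost on leaving out OGD/R replicate 2 (0.136) or replicate 3 (0.137). That of Rragc, whose groups overlapped, was lost with DESeq2 (adjusted p = 0.0680) and without OGD/R replicate 1 (0.125), replicate 2 (0.229), phillyrin replicate 2 (0.0899) or replicate 3 (0.182). With library size as the only scaling 1 gene of the list, Lamtor2, was higher, since Zdhhc5 (0.156) and Rragc (0.186) were lost. With RLE factors 5 were, and also without phillyrin replicate 1, when Irf2, a transcription factor known to drive Gsdmd, and Chmp3 were added. In the main fit Irf2 stood at 28.4 ± 2.30 and 32.8 ± 3.39 CPM, without overlap (edgeR adjusted p = 0.0502). It was also called higher with no low-count filter (0.0325) and with the replicate block (0.0372). The same held without OGD/R replicate 2 (0.0443) or phillyrin replicate 2 (0.0335).

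Upstream of transcription of Nlrp3 and Il1b, the priming list of Toll-like receptors and NF-kB activators gave 6 higher and 4 lower of 21 tested, with a median of 0.06. Ticam1, the adaptor TRIF, fell from 15.6 ± 0.459 to 11.1 ± 1.21 CPM and Irak2, a kinase of the MyD88 route, rose from 16.4 ± 1.12 to 22.0 ± 3.12 CPM (SD, n = 3 each, edgeR adjusted p = 0.000673 and 0.000515). Tlr2, a receptor for bacterial lipoproteins, rose (log2 fold change 0.40, SE 0.13, edgeR adjusted p = 0.0199), and lost its call without OGD/R replicate 1 (0.0570), replicate 3 (0.109) or phillyrin replicate 1 (0.0774). Tlr6, its partner, fell (log2 fold change -0.65, SE 0.21, edgeR adjusted p = 0.0180), and lost its call without OGD/R replicate 2 (0.143), phillyrin replicate 1 (0.0512) or replicate 2 (0.0636). Tab2, an adaptor of the TAK1 kinase with the highest FPKM of the list, rose from 204 ± 0.732 to 243 ± 3.62 CPM (edgeR adjusted p = 1.13e-06).

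Of 13 tested partners of NLRC3 and NLRX1, 1 rose and 2 fell, with a median of 0.02. Tbk1, the kinase that NLRC3 keeps from STING, fell from 60.4 ± 1.12 to 52.0 ± 0.892 CPM (± SD, n = 3 per group, log2 fold change -0.22 with an SE of 0.06, adjusted p = 0.00313 by edgeR), and Cgas, the DNA sensor that feeds STING, rose from 12.0 ± 0.191 to 15.6 ± 1.95 CPM (log2 fold change 0.39, SE 0.11, edgeR adjusted p = 0.00442). Tufm, the mitochondrial elongation factor that binds NLRX1, fell (log2 fold change -0.19, SE 0.06, edgeR adjusted p = 0.0104), but its call was lost on leaving out OGD/R replicate 3 (0.0543), which left 1 gene lower. Without OGD/R replicate 1, Traf3 was called as well (0.0476), making 2 higher. Uqcrc2, a respiratory chain subunit that binds NLRX1 and has the highest FPKM of the list, stood at 106 ± 4.23 and 113 ± 0.931 CPM (edgeR adjusted p = 0.0999).

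The relatives of Nek7 went both ways, with 2 higher and 3 lower of 7 tested and a median of -0.22. Nek2, a kinase of centrosome separation, rose from 108 ± 4.42 to 157 ± 4.86 CPM (± SD, n = 3 per group, log2 fold change 0.53 with an SE of 0.04, adjusted p = 2.43e-12 by edgeR), and Nek1 from 48.8 ± 2.00 to 58.0 ± 3.05 CPM (edgeR adjusted p = 0.00147). Nek8, a ciliary kinase, fell from 11.5 ± 0.907 to 8.10 ± 0.578 CPM (log2 fold change -0.51, SE 0.12, edgeR adjusted p = 0.00122). Nek6, the closest relative of Nek7, fell from 39.5 ± 2.99 to 33.1 ± 2.43 CPM (edgeR adjusted p = 0.00726), and Nek4 fell too. Without OGD/R replicate 1, 1 gene was lower, since Nek4 (0.0758) and Nek6 (0.0827) were not called, and without phillyrin replicate 2 Nek4 was not called (0.0583).

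**Figure D4:**
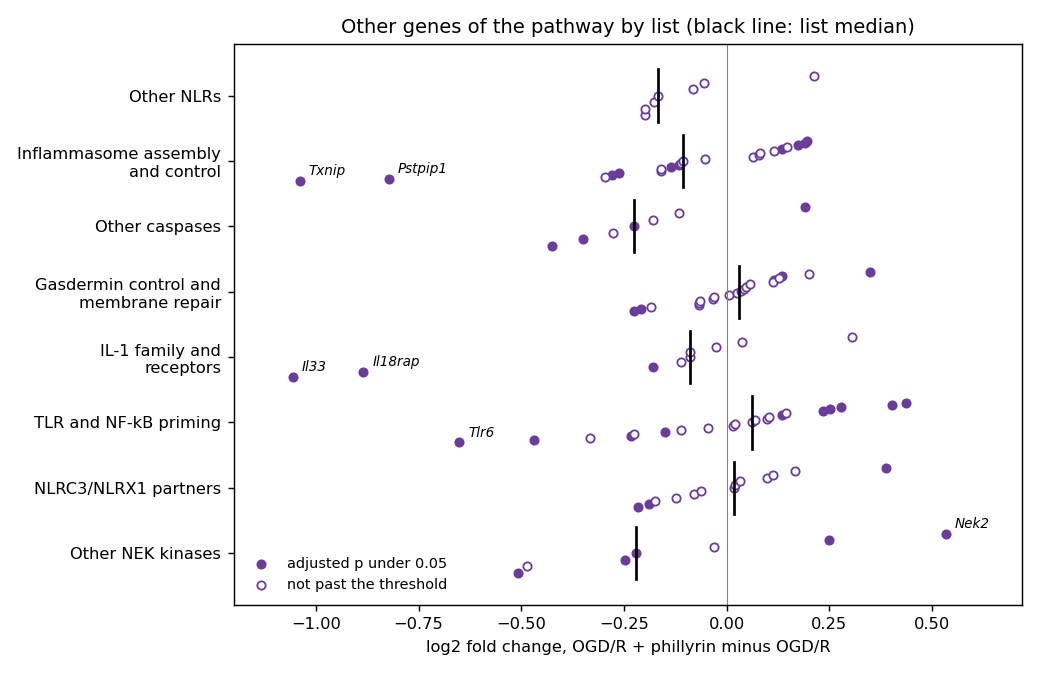
Log2 fold change of the 105 tested genes of the 8 pathway lists, OGD/R with phillyrin minus OGD/R, 1 point per gene, filled where the adjusted p was under 0.05, with the list median as a black line. Txnip, Il33, Il18rap and Pstpip1 lie farthest to the left, and the list of other NLRs has no filled point.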

How the data were processed

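Poly(A)-selected RNA of 6 libraries was sequenced in read pairs, per the labels' protocols. The submitters' processing notes name Trimmomatic 0.39, HISAT2 2.2.1, featureCounts 2.0.3, DESeq2 1.34.0 and GRCm39 without roles. The deposited table holds a raw read count and an FPKM per gene and library. The FPKM deposited by the authors equalled count over length and library total to a relative difference of 2.43e-07. Columns were assigned by sample title. The description field of every phillyrin sample names the same column, so the numbering of the phillyrin replicates rests on the titles alone. Counts were filtered with filterByExpr (minimum count 10), scaled by TMM and tested with edgeR 4.0.16 (R 4.3.3, limma 3.58.1), with Benjamini-Hochberg adjustment over 11658 genes and a threshold of 0.05. Gene lengths and coordinates are the table's. SEs were derived from the fold change and the quasi-likelihood F. The fit was run on counts simulated from its own dispersions with few genes changed, which tests neither the model nor the scaling. Alternatives were DESeq2 1.42.0, RLE factors, the replicate block, limma-voom, scaling by library size only, leaving out each library, a filter at a mean of 1 CPM and no filter on low counts. The members and lists were chosen with earlier results of these data known. Text names all members and, per list, up to 4 called genes with non-overlapping groups by size of change, and the gene with the highest FPKM. Other genes were named after their values were seen. A wider NF-kB motif was added after seeing the data. Of 153 symbols listed, 152 were matched. The other was Rigi, of the NLRC3 and NLRX1 partners, which is listed under its older symbol Ddx58 and was not counted. Protein sequences were not used here, and some items are not reported here.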

Additional observations from a re-analysis of the deposited data

How the results depend on the processing

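The signs of the log2 fold changes of Nlrc3, Nlrx1, Casp1, Casp4, Gsdmd, Gsdme and Ninj1 were the same in all 13 alternative fits. That of Nlrp3 was the same in the 12 that tested it, but Nlrp3 entered the fit mainly through the group in which it was higher. All these fits reuse the libraries with which the members were chosen, so equal signs are no independent support. Nek7 turned negative in 1, library size only. Over all genes, 1313 were then higher and 2455 lower. With that scaling 0 other caspases and 1 gene of gasdermin control and membrane repair were higher, against 1 and 3, and with RLE factors 5 of the latter were. With 1 library left out, other NLR genes had 0 to 1 higher and 0 to 1 lower, other caspases 0 to 1 higher, gasdermin control and membrane repair 2 to 5 higher, NLRC3 and NLRX1 partners 1 to 2 higher and 1 to 2 lower, and other NEK kinases 1 to 3 lower. The cause was not tested. Leaving out a library left 2 or 3 of the 10 members called. The deviations of same-numbered libraries from the group means correlated at 0.00278, 0.00561 and 0.00322 over 11658 genes. Each was the highest among the pairs of its libraries. These values do not settle whether same-numbered libraries were paired. With the replicate block 3709 genes were called against 3694, 3 members stayed past the threshold, and 4 genes of gasdermin control and membrane repair were higher. Depth limits Nlrp3 and Pycard most.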
